A study of Mus musculus with 3 samples.

Results

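The genes followed here are 10 that mark spermatogonia (SG), the mitotic germ cells of the testis, and their commitment to meiosis: Gfra1, Zbtb16, Lin28a, Nanos3, Uchl1, Sohlh1, Kit, Dmrt1, Stra8 and Dazl. They were taken by symbol from the gene list of the libraries, and all 10 were found among its 31053 genes. The question was which germ cells held their transcripts, which of them were found in the same cells, and whether this differed between 3 mouse genotypes.

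Droplet single-cell RNA-seq libraries were made from dissociated testicular cells of C57BL/6 mice aged 8 weeks by the sample labels. There was 1 library per genotype, with 7000 cells loaded per library. The study's methods describe cells freed from the seminiferous tubules by enzymes. WT mice carry the normal gonadotropin-regulated testicular RNA helicase (GRTH, gene Ddx25). KO mice lack GRTH, and KI mice carry a human GRTH gene with a missense mutation after which the phosphorylated form of the protein is missing. Males of both mutants are known for spermatids that stop at the round stage. The study describes GRTH as made by Leydig cells and by germ cells, so the change in both mutants is not confined to SG. The labels give 1 mouse per library, while the study's methods also describe testes pooled from a pair of mice per group and give a wider age range. With 1 library per genotype no difference had a replicate, so no test across samples was possible and no p-value is given. Every interval below is a 95% interval that covers counting error only, exact Poisson for sums of unique molecular identifiers (UMIs, each counting 1 captured transcript) and exact Clopper-Pearson for shares of cells. Where a count of 0 is said to allow a level, that level is a limit of 3 counts, below the upper end of the exact interval that the plots draw. A level is the number of UMIs of a gene per 1000000 UMIs of the same cells (CPM).

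The total was 82973909 UMIs for WT, 91388296 for KO and 73150373 for KI, and 5864, 4053 and 1571 cells were kept, with a median of 5126, 4019 and 11748 UMIs per cell. Of the kept barcodes 16 were shared by WT and KO, 37 by WT and KI and 8 by KO and KI, and the results below that changed without them are given both ways. The targeted gene matched the labels in KO, where Ddx25 was at 0.279 CPM (14 UMIs) against 130 CPM in WT. In KI 96.2 CPM were counted under the mouse gene, although the inserted gene is human, so this level is no measure of expression relative to WT. Germ cells made up 5613, 3670 and 1394 of these kept cells.

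SG lie on the basement membrane of the seminiferous tubule. The undifferentiated ones include the stem cells, which depend on the growth factor GDNF, and retinoic acid drives them first to differentiate and then to enter meiosis as preleptotene spermatocytes. Among the 10 genes GFRA1 is the GDNF co-receptor, ZBTB16 (PLZF) a transcription factor needed to maintain stem cells, LIN28A and NANOS3 RNA-binding proteins, and UCHL1 a ubiquitin hydrolase long used as an SG marker. SOHLH1 is a basic helix-loop-helix factor of differentiating SG, KIT the receptor of stem cell factor, and DMRT1 a DM-domain factor that holds back meiosis in SG. STRA8 is the retinoic acid-induced factor that starts the meiotic programme, and DAZL is an RNA-binding protein of germ cells that acts on translation.

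All 10 genes are protein coding and lie on 8 chromosomes of GRCm38. In the GENCODE annotation Gfra1, the longest at 220 kb, lies on chromosome 19 from 58235604 to 58455909, minus strand, and Stra8 on chromosome 6 from 34920163 to 34939344, plus strand. Lin28a lies on chromosome 4 from 134003330 to 134018841 and Sohlh1, the shortest at 4.25 kb, on chromosome 2 from 25842995 to 25847248, both on the minus strand. An antisense gene that the files also list overlaps Uchl1 (Uchl1os) and Gfra1 (Gm16277), and Gm13061, a transcript on the other strand that the files do not list, overlaps Lin28a. Whether strand was used in counting is not given in the sources used here, so the counts of these 3 genes may include reads of the overlapping transcript. Retinoic acid receptors bind repeats of the letters AGGTCA, and basic helix-loop-helix factors bind E-boxes such as CACGTG, so the start regions of RefSeq (build GRCm38.p6, 250 bases before to 50 bases after the start) were searched for these letters, for the cAMP response element TGACGTCA and for the GC box GGGCGG, on both strands. A start region was listed for 8 of the 10 genes, not for Zbtb16 or Dmrt1. Those of Stra8, Sohlh1 and Lin28a are printed because the levels of these genes carry the results below, 5′ to 3′ along the gene, with every match in capitals.
Stra8, chr6:34920698-34920997, plus strand: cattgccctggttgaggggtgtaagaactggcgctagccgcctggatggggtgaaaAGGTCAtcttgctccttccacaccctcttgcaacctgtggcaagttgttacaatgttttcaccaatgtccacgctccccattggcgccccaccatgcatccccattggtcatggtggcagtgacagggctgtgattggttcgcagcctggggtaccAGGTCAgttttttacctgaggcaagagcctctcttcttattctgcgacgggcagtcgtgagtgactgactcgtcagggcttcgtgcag
Sohlh1, chr2:25847199-25847498, minus strand: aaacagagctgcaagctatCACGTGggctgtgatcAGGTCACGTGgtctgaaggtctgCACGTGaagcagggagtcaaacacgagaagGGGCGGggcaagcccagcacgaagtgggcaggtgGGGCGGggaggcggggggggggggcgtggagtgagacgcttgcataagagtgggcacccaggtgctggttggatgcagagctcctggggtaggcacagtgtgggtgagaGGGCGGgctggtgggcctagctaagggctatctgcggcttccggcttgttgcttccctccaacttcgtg
Lin28a, chr4:134018767-134019066, minus strand: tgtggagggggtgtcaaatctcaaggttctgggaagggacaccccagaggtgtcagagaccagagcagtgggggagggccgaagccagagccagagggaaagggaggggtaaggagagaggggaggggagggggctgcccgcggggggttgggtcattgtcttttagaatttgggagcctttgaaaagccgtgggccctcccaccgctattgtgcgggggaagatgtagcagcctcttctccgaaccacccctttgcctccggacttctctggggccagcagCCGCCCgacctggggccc
In Stra8 AGGTCA stood at positions -194 and -38 from the RefSeq start. This whole window lies inside Stra8 as GENCODE places it, so the starts of the 2 annotations differ. Sohlh1 held CACGTG at -231, -211 and -192, with an AGGTCA at -215 that overlaps the middle E-box by 2 bases, and GGGCGG at -162, -128 and -19. Lin28a held GGGCGG only, on the other strand, at position 33. Among 32851 start regions of the same length 16.3% held AGGTCA, 7.15% CACGTG, 1.79% TGACGTCA and 35.7% GGGCGG. These matches are letters in a window and no measure of binding.

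The 10 genes were kept out of the clustering, so that their levels describe cells grouped by other genes. A cluster of 321 cells held SG and early meiotic cells and made up 1.98% of germ cells in WT (111 cells, interval 1.63% to 2.38%), 3.65% in KO (134 cells, 3.07% to 4.31%) and 5.45% in KI (76 cells, 4.32% to 6.78%). The 3 intervals did not overlap, but with no cell calling the shares were 1.42%, 0.602% and 1.19%, so that WT was highest. Cells of clusters named by elongated spermatid markers (ES-like cells), part of the total, came to 2420 (WT), 457 (KO) and 187 (KI). The study reports no distinct elongated spermatids in either mutant. Without integration of the libraries, a cluster so named held 1171 WT, 1 KO and 1 KI cells, and another 1071 WT cells and no mutant cell. The ES-like name of mutant cells thus rests on the integration. The 321 cells of the early cluster were divided into 7 subclusters. SG-like cells, in which 9 of 10 SG markers outside the list such as Sall4 and Ret exceeded the remaining cells, came to 16 (WT), 19 (KO) and 13 (KI). A subcluster of 17, 16 and 6 cells had nearly equal scores for SG (1.546) and early spermatocyte (SP) markers (1.539). It took no name by the rule and is called between SG and early SP here. The 4 early SP-like subclusters carried leptotene and zygotene markers such as Sycp3 and Dmc1. The seventh, with 27, 25 and 11 cells, had Sertoli cell markers beside meiotic ones and also stayed unnamed. The median cell of the whole cluster held 7022 (WT), 8033.5 (KO) and 16879 (KI) UMIs, so shares of cells with a UMI are also given after every cell was thinned to 3000 UMIs.

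**Figure D1:**
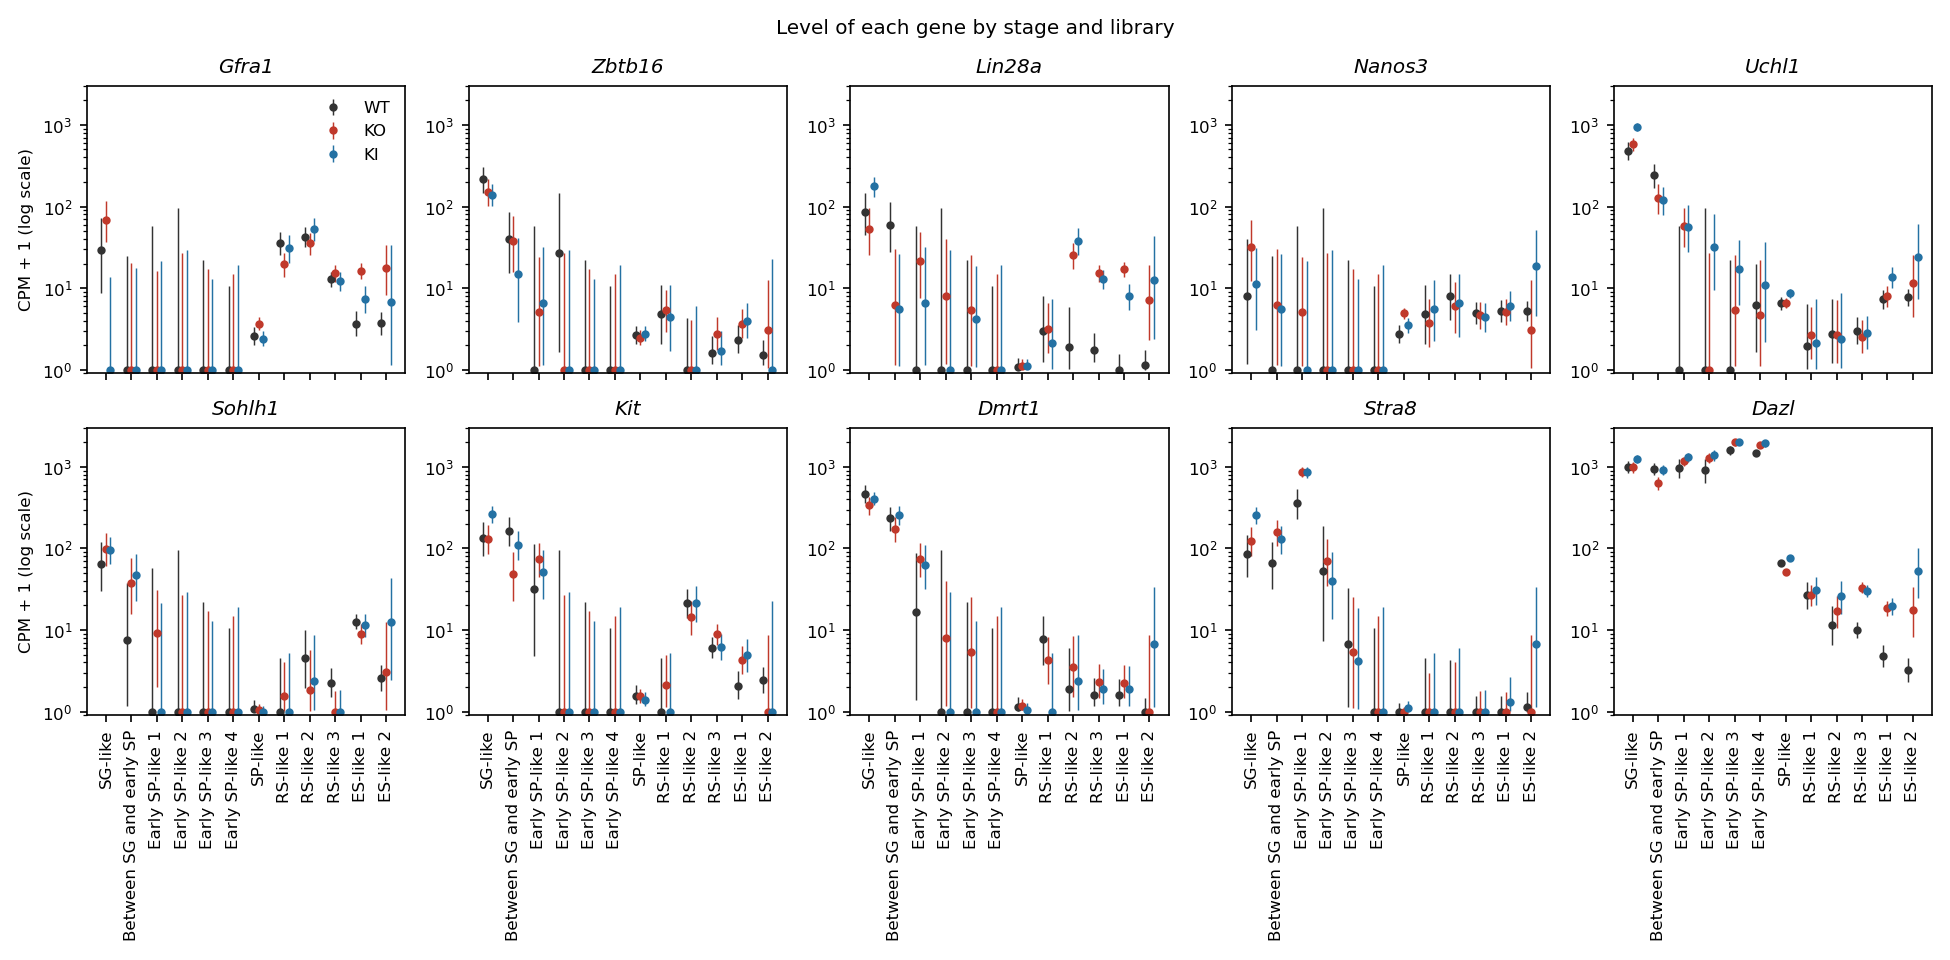
Level of each of the 10 genes (CPM + 1, log axis) in 12 groups of germ cells in an order set by hand, from SG-like to ES-like, for WT, KO and KI. Points are sums over cells and bars exact Poisson 95% intervals; the first groups hold few cells, so a point at 1 with a long bar is a count of 0. Stra8 is confined almost whole to the early groups, Dazl stays high through early SP, and Gfra1, Kit and, in KO and KI, Lin28a are found again in spermatids.

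Of the undifferentiated genes Gfra1 and Nanos3 were found in the fewest SG-like cells, 6 each of 48. Gfra1 gave 4 WT, 13 KO and 0 KI UMIs in the whole cluster, all of them in SG-like cells, where its level was 27.9 CPM in WT and 67.1 CPM in KO. Of the 13 KO UMIs 10 lay in 1 cell, whose barcode was also a kept cell of another library, and without the shared barcodes the KO level over the whole cluster was below that of WT (log2 ratio over the cluster -0.53 in place of 1.17). In KI a count of 0 allows up to 2.03 CPM in the cluster, so at this depth Gfra1 was too sparse to compare. Zbtb16 was at 216 CPM (interval 147 to 307) in SG-like cells of WT, 150 CPM (100 to 215) in KO and 139 CPM (99.7 to 189) in KI. These intervals overlapped, and 17 of the 31 WT UMIs lay in 1 cell, without which the WT level was 103 CPM.

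Nanos3 gave 1, 6 and 3 UMIs in the SG-like cells of WT, KO and KI, too few to separate the genotypes. Lin28a, which binds and blocks let-7 precursors, was at 83.8 CPM (43.3 to 146) in WT SG-like cells, 51.6 CPM (24.8 to 95) in KO and 176 CPM (132 to 231) in KI. KI was highest for Lin28a, with an interval that lay above that of KO and overlapped that of WT. Uchl1 was at 482 CPM (375 to 610) in WT, 578 CPM (476 to 696) in KO and 946 CPM (838 to 1063) in KI, and was found in all 48 SG-like cells. The KI level of Uchl1 exceeded both others beyond counting error. Uchl1 was lower in the cells between SG and early SP, at 241, 125 and 119 CPM, and at 6.29 CPM over the SP-like cells of the 3 libraries together.

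Among the differentiation genes Dmrt1 was highest in SG-like cells. It was at 468 CPM (363 to 594) in WT SG-like cells, 336 CPM (259 to 428) in KO and 407 CPM (337 to 486) in KI, with overlapping intervals. Over the 3 libraries Dmrt1 was at 399 CPM in SG-like cells, 222 CPM in the cells between, 61.4 CPM in the first early SP-like subcluster and 0.118 CPM in SP-like cells, and no neighbours among these 4 groups had overlapping intervals. In RS-like cells it was at 1.43 CPM, above SP-like cells. Empty barcodes held Dmrt1 at 1.21 CPM in WT, 0.448 CPM in KO and 1.57 CPM in KI, and the part of free RNA in the RS-like level was not tested. Kit was at 133 CPM (79.9 to 207) in WT SG-like cells, 129 CPM (83.5 to 191) in KO and 261 CPM (206 to 326) in KI. In the cells between SG and early SP the Kit level was 163 CPM in WT, 47.0 CPM in KO and 110 CPM in KI, so in WT it was not below that of SG-like cells. KI lay above KO for Kit in SG-like cells, and the lower bound of KI lay just below the upper bound of WT. Sohlh1 was at 62.8 CPM (28.7 to 119) in WT, 98.1 CPM (59.1 to 153) in KO and 94.9 CPM (63.1 to 137) in KI, a spread within counting error.

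Of the 8 genes with a mean of 10 CPM or more in the cluster, Stra8 had the largest ratio to WT in both mutants. The whole cluster held 49 Stra8 UMIs in WT, at 43.6 CPM (32.3 to 57.7). It held 278 in KO, at 198 CPM (175 to 222), and 265 in KI, at 179 CPM (158 to 202). Both mutants lay above WT with intervals apart from it, by a log2 ratio of 2.15 in KO and 2.01 in KI with 1 CPM added, while KO and KI overlapped. When cells were taken not by cluster but by a gate of 3 or more UMIs of SG markers other than Id4, the KI ratio was 0.91, short of 2-fold, and that of KO 2.14. With Id4 in the gate the ratios were 1.80 and 1.83, at a mean level under 10 CPM. Of all Stra8 UMIs in kept cells this cluster had 94.2% (WT), 98.2% (KO) and 97.4% (KI). In clusters named by round spermatid markers (RS-like cells) no cell of any library held a Stra8 UMI. Its level in empty barcodes was 0.485, 0.448 and 2.87 CPM, far below that in the cluster.

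The order of the early SP-like subclusters was set by hand. In the first of them Stra8 was among the 10 genes with the highest ratio to all other cells. That this subcluster held many Stra8 UMIs thus partly restates that Stra8 led it. With 7 WT, 20 KO and 9 KI cells, it held most of the mutants' Stra8 UMIs, 74.6% in KO and 56.2% in KI. Of those of WT it held 44.2%. There Stra8 was at 357 CPM (226 to 536) in WT, 864 CPM (751 to 988) in KO and 852 CPM (722 to 998) in KI, in 6 of 7, 20 of 20 and 9 of 9 cells. Within this subcluster Stra8 was also higher in the mutants, by a log2 ratio of 1.27 in KO and 1.25 in KI. These ratios were smaller than in the cluster as a whole, of which the subcluster made up more cells in the mutants. With only 7 WT cells, 35.8% of 8727 genes passed 2-fold there in KO and 38.2% in KI. In KO 51 of the 211 UMIs lay in 1 cell, without which the level was 764 CPM. The summed early meiotic markers of this subcluster were similar, 10695 CPM in WT, 10101 CPM in KO and 11420 CPM in KI with all 10 detected in each, while Sertoli markers (6 of 10 detected in each library) were at 543, 188 and 189 CPM and elongated spermatid markers (8, 10 and 7 of 10 detected) at 1521, 810 and 284 CPM. Sertoli and spermatid markers were thus higher in WT, and their part in the Stra8 difference was not tested. In SG-like cells Stra8 was at 83.8 CPM (43.3 to 146) in WT, 124 CPM (79.4 to 184) in KO and 254 CPM (200 to 319) in KI. Here KI lay above both WT and KO, which overlapped.

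Dazl was high in every early subcluster and differed by small ratios between genotypes, with KI apart from WT. It was at 1306 CPM (1240 to 1374) in the cluster in WT, 1346 CPM (1286 to 1408) in KO and 1456 CPM (1395 to 1518) in KI. Over the 3 libraries it was at 1109 CPM in SG-like cells, 1898 CPM in the third early SP-like subcluster and 62.6 CPM in SP-like cells. The SP-like level of Dazl was 65.1 CPM (60.9 to 69.4) in WT, 50.5 CPM (47.7 to 53.4) in KO and 75.1 CPM (71.4 to 78.9) in KI, and that of empty barcodes 32.3, 40.2 and 66.5 CPM (60.8 to 72.5 in KI). The SP-like level thus lay apart from that of empty barcodes in WT and KO and overlapped it in KI.

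**Figure D2:**
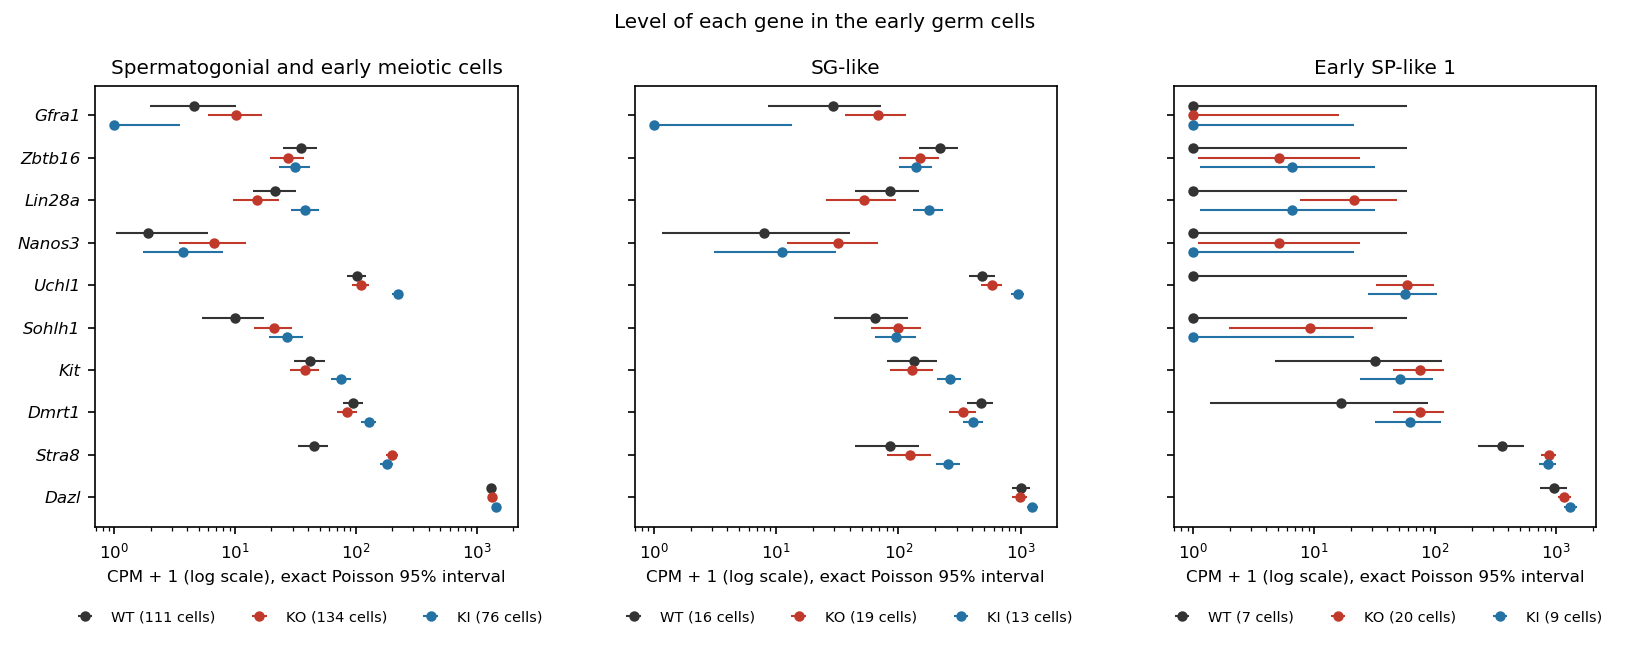
Level of each gene (CPM + 1, log axis, exact Poisson 95% intervals) in the whole cluster of spermatogonial and early meiotic cells, in SG-like cells and in the first early SP-like subcluster of WT, KO and KI. Stra8 of KO and KI (198 and 179 CPM) lies right of WT (43.6 CPM) in the cluster, and in KI Uchl1, Sohlh1, Kit and Dazl also lie right of WT with bars apart from it, by smaller ratios.

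In the cluster 8 of the 10 genes reached a mean of 10 CPM over the libraries, all but Gfra1 and Nanos3. At least 2-fold against WT on the scale with 1 CPM added, 2 of these 8 were higher in KO, Sohlh1 (1.08 on the log2 scale) and Stra8, and none was lower, beside 5.55% of 9488 genes that passed 2-fold in either direction (3.19% higher, 2.36% lower). In KI 3 of 8 were higher, Uchl1 (1.13), Sohlh1 (1.43) and Stra8, and none was lower, beside 7.84% in either direction (2.15% higher, 5.69% lower). Under the gate without Id4 the KI ratios of Uchl1 and Sohlh1 turned to -0.77 and -0.17. With Id4 in the gate only 2 genes of the list reached the minimum level, Stra8 not among them, and neither passed 2-fold in either mutant. The share of all genes was not taken under the gates, so nothing is read from this count. Sohlh1, at 8.90 CPM (4.27 to 16.4) in WT, 19.9 CPM (13.2 to 28.8) in KO and 25.7 CPM (18.2 to 35.3) in KI, had WT and KO intervals that overlap and reached the minimum level through the mutants. Its part in both counts thus restates that minimum, which leaves Stra8 in KO and Uchl1 and Stra8 in KI. It had a log2 ratio of 0.84 in KO with 5 CPM added and rests on few UMIs in the cluster, 10 (WT), 28 (KO) and 38 (KI). The median log2 ratio of the 8 was -0.05 in KO and 0.84 in KI, and that of all genes -0.01 in both. Lin28a (0.83) and Kit (0.85) lay just short of 2-fold in KI. SG-like cells gave 143207 of the 1123503 UMIs of the cluster in WT and 295035 of 1479081 in KI, a larger part of the sum in KI, and over all 10 genes within SG-like cells the KI median was 0.54. The summed levels of the 10 SG markers used for naming were 233, 252 and 287 CPM in WT, KO and KI.

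Within SG-like cells alone the background was far wider, with 13 to 19 cells per library. Of 10008 genes 28.2% passed 2-fold in KO and 29.1% in KI. Of the 10 genes, 2 passed in KO, Gfra1 and Nanos3, on 13 and 6 UMIs, and 3 in KI, with Lin28a and Stra8 higher and Gfra1 lower. These shares are near the background and are no result about the genes. In the first early SP-like subcluster, where Stra8 passed 2-fold in both mutants, 35.8% of 8727 genes did in KO and 38.2% in KI. Passing 2-fold there is therefore no result by itself. The SG-like cells of WT carried elongated spermatid markers at 23037 CPM, against 1425 CPM in KO and 356 CPM in KI. Of these WT UMIs 75.3% lay in 1 cell, and without it the sum was 6488 CPM, and their part in the WT levels was not tested.

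Other genes of the same programme were described by 3 lists of 12. Of the list for undifferentiated SG 4 genes reached 10 CPM in the cluster, and 1 was past 2-fold, lower in KO, beside 2.36% of all genes. This was Foxo1, a transcription factor of stem cell maintenance, at 79.2 CPM in WT, 36.2 CPM in KO and 73.7 CPM in KI. Taf4b, a TFIID subunit, was at 146, 161 and 193 CPM, and Lin28b, the paralogue of Lin28a, at 134, 150 and 218 CPM. Sox3 was at 7.12, 9.95 and 14.9 CPM. Of the list for retinoic acid signalling and differentiation 5 reached 10 CPM and none passed 2-fold in either mutant. The 4 of highest level were Tex14, a protein of the bridges between germ cells, at 606, 646 and 655 CPM, Dmrtb1 at 66.8, 112 and 65.6 CPM, Sohlh2, the partner of Sohlh1, at 56.1, 42.6 and 52.1 CPM, and Ccnd1, a cyclin, at 46.3, 37.7 and 71.0 CPM.

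Of the list for meiotic entry 11 of 12 genes were found and all 11 reached 10 CPM. Past 2-fold were 2 in KO, Rec8 and Prdm9, both higher, and 1 in KI, Rec8, also higher, beside 3.19% of all genes of the cluster higher in KO and 2.15% in KI. Rec8 reached the minimum of 10 CPM only through the mutants, so its part in this count restates that minimum. Rec8, the meiotic cohesin subunit, was at 5.34 CPM (1.96 to 11.6) in WT, 22 CPM (15 to 31.3) in KO and 14.9 CPM (9.32 to 22.5) in KI. Prdm9, which places recombination sites, was at 46.3 CPM (34.6 to 60.7) in WT, 93.8 CPM (78.5 to 111) in KO and 79.8 CPM (66.0 to 95.5) in KI. The KO intervals of both genes lay apart from WT. In KI that of Prdm9 did too, short of 2-fold (0.77 on the log2 scale), and that of Rec8 overlapped WT. The most abundant genes of the list differed less, Ddx4 at 536, 414 and 417 CPM, Meioc at 358, 419 and 410 CPM, Rbm46 at 316, 279 and 316 CPM and Mael at 273, 334 and 289 CPM. The list's median log2 ratio was 0.23 in KO and 0.16 in KI.

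Co-detection was read in the 48 SG-like cells of the 3 libraries, which are not replicates of each other. A UMI of Uchl1 and of Dazl was found in all 48, of Dmrt1 in 46, Kit in 33, Zbtb16 in 29, Lin28a in 26, Sohlh1 in 25, Stra8 in 24, and of Gfra1 and Nanos3 in 6 each. Markers of undifferentiated and of differentiating SG were found together in some cells of each library, whose depths differ. Of the cells with Zbtb16, Kit was also held by 3 of 8 (WT), 7 of 12 (KO) and 8 of 9 (KI), while it was found in 10 of 16, 11 of 19 and 12 of 13 of all SG-like cells. Stra8 was held by 2 of 8, 7 of 12 and 7 of 9 of the cells with Zbtb16, and by similar shares of all SG-like cells, 4 of 16, 10 of 19 and 10 of 13. All 33 cells with Kit held Dmrt1. Of the cells with Stra8, 3 of 4 (WT), 8 of 10 (KO) and 10 of 10 (KI) held Kit. Of the 6 cells with Gfra1, 3 of WT and 3 of KO, 5 held Zbtb16, 5 Lin28a, 2 Kit and 2 Stra8. The KO cell with most Gfra1 UMIs had a barcode also kept in another library. So few cells do not place Gfra1 among the other genes.

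A SG-like cell held a median of 5 of the 10 genes in WT, 6 in KO and 8 in KI, and after thinning to 3000 UMIs 4, 3 and 5. The unthinned values stood beside median depths of 7419.5, 8750 and 20573 UMIs in these cells. In the first early SP-like subcluster, which had Stra8 among its leading genes, 35 of 36 cells held Stra8 and all 36 Dazl. Kit, Dmrt1 and Uchl1 were each found in 13, mostly of the mutants, and all 13 cells with Kit held Stra8. Kit was found in 1 of 7 WT, 8 of 20 KO and 4 of 9 KI cells, Dmrt1 in 1, 7 and 5, and Uchl1 in 0, 8 and 5. These counts are unthinned, and the median depths there were 5791, 8529 and 16684 UMIs. Gfra1 was found in none of these 36 cells. In the whole cluster 2 or more of the genes were found in 37.3% of thinned cells in WT (interval 27.9% to 47.4%), 39.8% in KO (31.3% to 48.9%) and 37.3% in KI (26.4% to 49.3%), and unthinned in 45%, 50% and 61.8%. This measure leans on Dazl, found in 318 of the 321 cells unthinned. Cells with 5 or more of the genes were 3 of 16 (WT), 6 of 19 (KO) and 8 of 13 (KI) of thinned SG-like cells, and 3 of 17, 1 of 15 and 0 of 6 of thinned cells between SG and early SP, so the order of the genotypes was not the same. At 6000 UMIs the shares with 2 or more were 45%, 48.3% and 49.3%. In all other germ cells the thinned share was 0.310%, 0.925% and 2.12%.

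**Figure D3:**
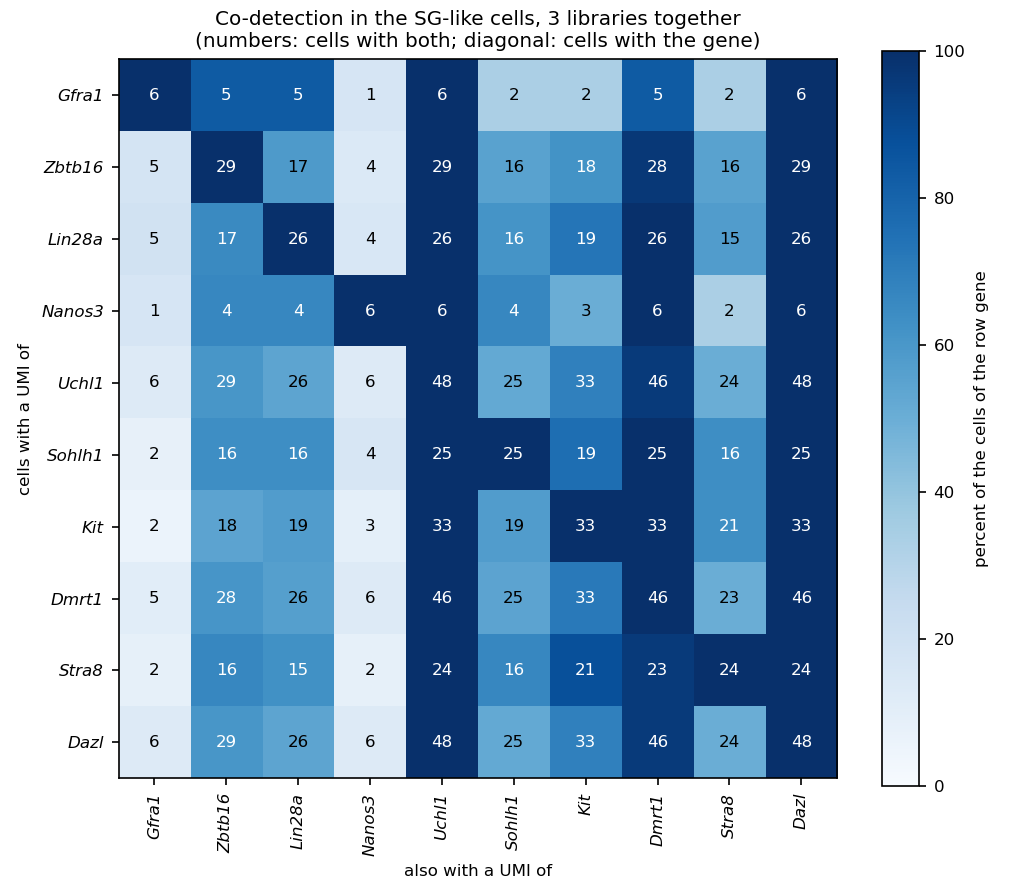
Co-detection in the 48 SG-like cells of the 3 libraries, unthinned. Each square gives the number of cells with a UMI of both genes and its colour the percent of the cells of the row gene; the diagonal gives the cells with the gene, from 6 for Gfra1 to 48 for Uchl1 and Dazl.

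The cells that held the genes differed from gene to gene. The spermatogonial and early meiotic cluster held most UMIs in every library for 2 of the 10 genes, Stra8 and Dmrt1. It held 67.1%, 72.4% and 87.9% of the Dmrt1 UMIs of WT, KO and KI (SG-like cells alone 42.4%, 39.9% and 56.1%), and about the same share of Dazl in each library, 52.8%, 49.9% and 49.3%. For Gfra1 it held 1.09% in WT, 3.36% in KO and none in KI. RS-like cells, named by round spermatid markers, held 44.0%, 36.4% and 47.9% of Gfra1 UMIs. The first RS-like cluster passed the naming score of 0.5 narrowly, at 0.587, with no such marker among its 10 leading genes. Zbtb16 and Kit were also held by somatic cells, with Kit at 237, 232 and 270 CPM in Leydig-like cells and Zbtb16 at 23.0 CPM in WT (3 UMIs), 130 CPM in KO and 161 CPM in KI there. ES-like cells held 78.2% (WT), 53.3% (KO) and 48.1% (KI) of Sohlh1 UMIs and were far more numerous in WT. These UMIs lay mostly in the first ES-like cluster at 11.7 CPM in WT, 8.00 CPM in KO and 10.5 CPM in KI.

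**Figure D4:**
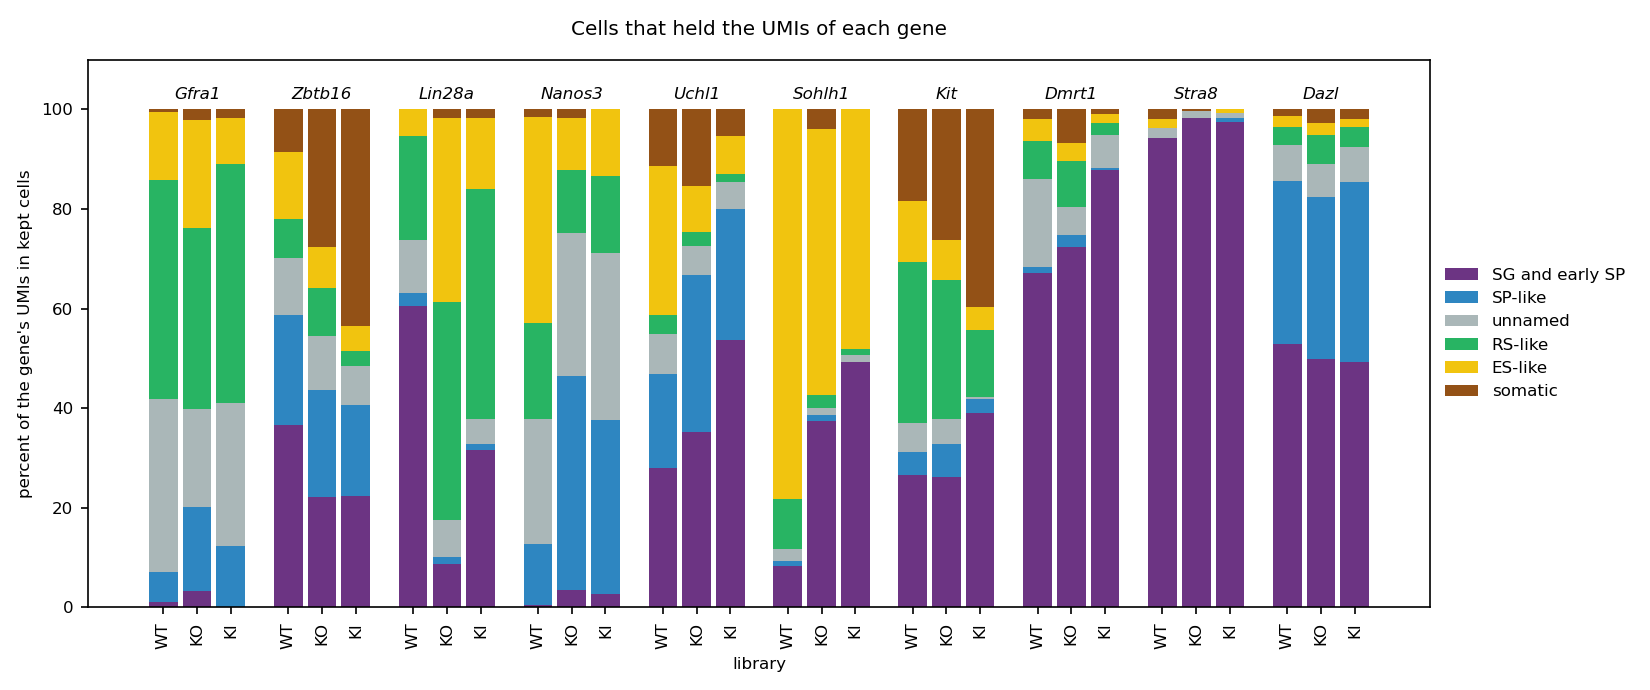
Percent of each gene's UMIs in kept cells that lay in each class of cells, for WT, KO and KI, as stacked bars that add to 100%. Stra8 lies almost whole in the spermatogonial and early meiotic cluster (94.2% or more), whereas at most 3.60% of the Gfra1 or Nanos3 UMIs of a library lie there.

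Lin28a was the gene of the list that differed most in spermatids. The RS-like cells of WT held 8 Lin28a UMIs, at 0.922 CPM (0.398 to 1.82). Those of KO held 99, at 12.9 CPM (10.5 to 15.7), and those of KI 80, at 13.3 CPM (10.6 to 16.6). Both mutants lay apart from WT, by a log2 ratio of 2.85 in KO and 2.90 in KI, while the median over all genes of RS-like cells was 0.22 and 0.18. Without integration the deeper RS-like cells lay in clusters apart by genotype, one of 467 WT cells with no mutant cell and another of 1 WT, 620 KO and 244 KI cells, so the comparison within 1 class rests on the integration. The ratios over all cells then named RS-like were 3.38 and 3.01. These were not the same set of cells. A cluster of 343 WT, 639 KO and 85 KI cells, led by Fgf14 and Ppfia2 like the first RS-like cluster, took no name and was left out. In the integrated class Lin28a was found in 8 of 1386 WT cells, 74 of 1599 KO cells and 50 of 466 KI cells. After thinning, which left out cells under 3000 UMIs, it was in 0.585%, 4.16% and 4.36% of the remaining 513, 481 and 275 cells. Of these, 350 (WT), 212 (KO) and 99 (KI) were of the third RS-like cluster, so the mix of the thinned cells also differed by genotype. RS-like cells held 21.1% of all Lin28a UMIs of WT, 43.6% of those of KO and 46.0% of those of KI.

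The difference in Lin28a lay in 2 of the 3 RS-like clusters. In the first the WT, KO and KI levels were 1.94, 2.19 and 1.14 CPM, on 1 to 4 UMIs each. In the second it was at 0.887 CPM (0.0224 to 4.94) in WT, 24.4 CPM (16.4 to 35.1) in KO and 37.2 CPM (24.5 to 54.1) in KI, and in the third at 0.767 CPM (0.249 to 1.79), 14.1 CPM (10.9 to 18) and 11.8 CPM (8.84 to 15.5). In the second cluster 17.4% of 9268 genes passed 2-fold in either direction in KO and 15.8% in KI (11.1% and 9.48% higher), and Lin28a was among them in both. It reached the minimum of 10 CPM there only through the mutants' levels, so its count was fixed by them and nothing is read from it. Over all RS-like cells its mean of 9.05 CPM lay just under the minimum of 10 CPM, beside a background of 9.38% of 8704 genes in KO and 9.18% in KI. The first cluster made up 405 of the 1386 WT cells, 722 of the 1599 KO cells and 126 of the 466 KI cells, so the genotypes did not hold the same mix of RS-like cells.

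In SP-like cells, which precede the spermatids, Lin28a gave 1, 3 and 2 UMIs, about 0.1 CPM or less in each library although they were the deepest cells. In the first ES-like cluster it gave no UMI in WT, which allows up to 0.443 CPM, and was at 16 CPM (12.6 to 20) in KO and 6.91 CPM (4.38 to 10.4) in KI, where the median over all genes was also higher by 0.60 and 0.62 on the log2 scale. Empty barcodes held Lin28a at 0.485 CPM in WT, 8.17 CPM in KO and 5.09 CPM in KI. The mutants' level in the second and the third RS-like clusters lay above that of their empty barcodes and that in SP-like cells far below it. Elongated spermatid markers, all 10 detected in each library, summed to 24374 CPM in RS-like cells of WT, 8654 CPM in KO and 6257 CPM in KI, and round spermatid markers, also all 10 detected, to 6394, 6091 and 6512 CPM. The spermatid mix thus moved with the genotype, and its part in the Lin28a difference was not tested.

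Of the other genes found in spermatids, Gfra1 and Kit had overlapping levels and Dazl was higher in both mutants. Gfra1 was at 18.6 CPM (15.8 to 21.6) in RS-like cells of WT, 18.4 CPM (15.5 to 21.6) in KO and 18.9 CPM (15.5 to 22.7) in KI, and highest in the second RS-like cluster at 41.7, 34.5 and 52.3 CPM, above the 6.67, 7.61 and 8.62 CPM of empty barcodes. The Gfra1 levels of the 3 genotypes overlapped. Kit was at 20.4 CPM (12.9 to 30.6) in the second RS-like cluster of WT, 13.5 CPM (7.71 to 21.9) in KO and 20.6 CPM (11.6 to 34.1) in KI, and at 6.45, 7.16 and 6.34 CPM over all RS-like cells. The RS-like level of Dazl was 11.3 CPM in WT, 28.1 CPM in KO and 28.9 CPM in KI, past 2-fold in both mutants, but these levels lay below the 32.3, 40.2 and 66.5 CPM of the empty barcodes of each library. The part of free RNA in them was not tested. Of the RS-like cells with Lin28a, 2 of 8 (WT), 15 of 74 (KO) and 24 of 50 (KI) also held Gfra1, against 126 of 1386, 122 of 1599 and 86 of 466 of all RS-like cells. These counts are unthinned, and the median depth of the RS-like clusters ran from 1186 to 30558 UMIs, a spread whose part in the counts was not tested.

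**Figure D5:**
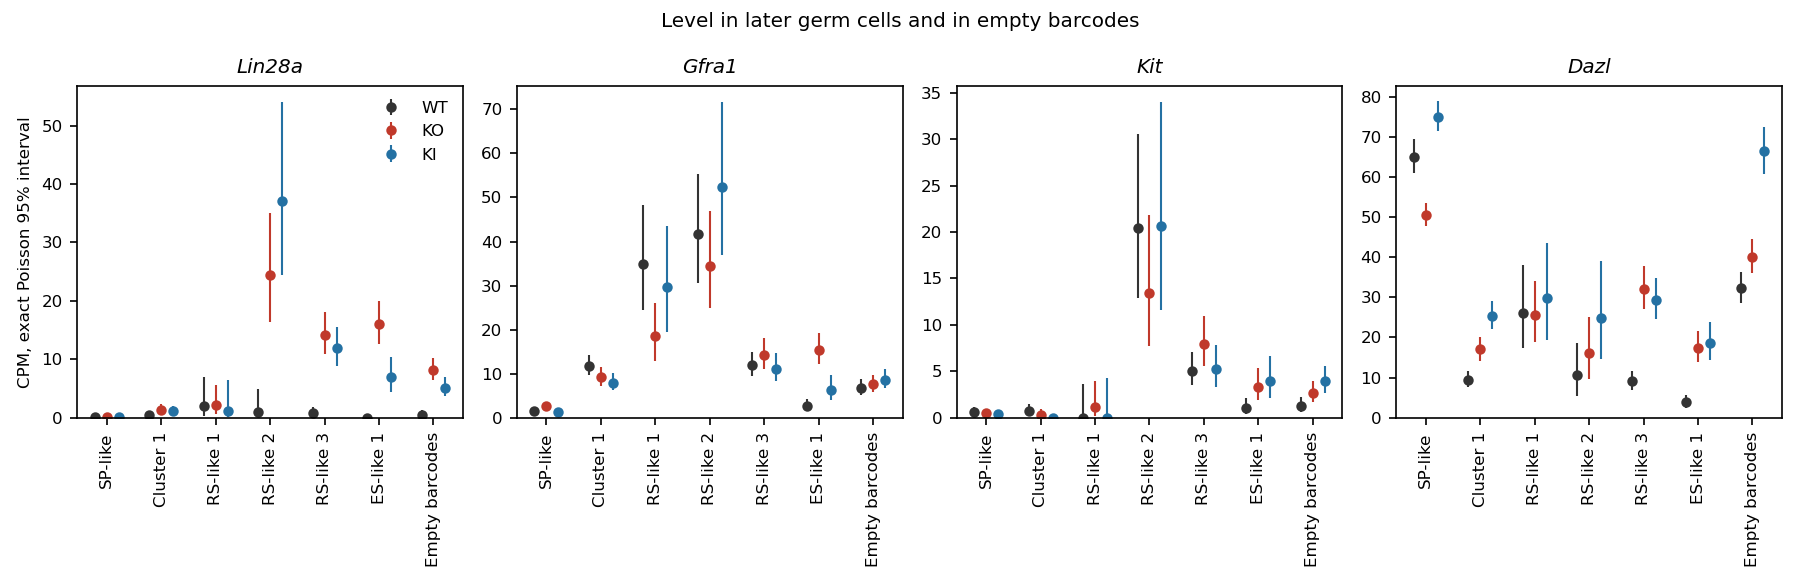
Level (CPM, linear axes from 0 that differ between panels, exact Poisson 95% intervals) of Lin28a, Gfra1, Kit and Dazl in later germ cells and in empty barcodes of WT, KO and KI. Lin28a of KO and KI stands above WT in the second and the third RS-like clusters, Gfra1 and Kit overlap between genotypes in the second RS-like cluster, and Dazl lies near or below its level in empty barcodes except in SP-like cells of WT and KO.

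Genes of most similar pattern were sought by Pearson's r of log2(CPM + 1) over 41 sums of a cell class in a library, among 19289 genes. The sums share their libraries and depth, so r is a description. The subclusters of SG and early meiotic cells were merged into a single class here, so r does not separate patterns among them. The closest genes were Hist1h1a (0.97) and Gm15262 (0.97) for Stra8, Kif1c (0.92) and Zfp182 (0.92) for Zbtb16, and 4930447C04Rik (0.90) and Meiob (0.88) for Dazl. For Gfra1 they were Gpm6a (0.89) and Pkd1l3 (0.88), for Dmrt1 Ugt8a (0.87) and Mcam (0.85), and for Sohlh1 Figla (0.86) and Nptx2 (0.85). Lin28a was closest to Disp3 (0.82) and Unc5d (0.81), Kit to Snhg11 (0.83) and Acp5 (0.79), Uchl1 to Pcsk1n (0.80) and Bex2 (0.78), and Nanos3 to 4930537H20Rik (0.74) and Btg4 (0.74). Within the list the highest r was 0.82, between Dmrt1 and Stra8.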

How the data were processed

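The authors deposited whole-number UMI counts per gene and barcode, 1 matrix per library, neither normalized nor called as cells. The submitters' notes name Cell Ranger 2.1.1 and mm10, while the file headers name software version 4; whether strand was used in counting is not given in the sources used here, so Uchl1, Gfra1 and Lin28a may share reads with transcripts on the other strand. Each library was 1 sample, grouped by its label.

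Cells were called by UMI totals (3000 expected cells) and then against the summed profile of barcodes at ranks 45000 to 90000 by total, drawing 10000 simulated profiles for each total, at a false discovery rate of 0.01. At most 20000 candidate barcodes per library were compared with this profile. The limit left out barcodes of low total in KO only, which had 35721 candidates, against 10991 in WT and 9158 in KI. Cells with over 500 genes and under 10% mitochondrial UMIs were kept. Libraries were integrated on 2000 genes, leaving out the 10 genes and the lists around them, and clustered with 100 components at resolution 0.3 (subclusters 0.6), with Python 3.11.15, leidenalg 0.10.2 and scanpy 1.11.5, and with sctransform 0.4.2 and Seurat 5.3.0 under R 4.3.3. Clusters took a name from marker genes by a mean score of at least 0.5 and a lead of 0.1; this rule was set after the clusters were seen, and the names may differ from those of the study. Doublets were not removed in the values reported.

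UMIs were summed per class and library, scaled to CPM, and compared as log2 ratios with 1 CPM added, among genes with a mean of at least 10 CPM. For shares, cells were thinned to 3000 UMIs and shallower cells left out. A count of 0 was given a limit of 3 counts. Empty barcodes were those used as the ambient profile. All 10 genes are named, with the 4 highest genes of each list, the genes of a list past 2-fold and the 2 most similar genes of each. The genes and lists were chosen with earlier results of these data known. The sums were tested on simulated data. Alternatives were TMM factors (edgeR 4.0.16), other pseudocounts, minimums and depths of thinning, other cell calling, doublet removal, no integration and a gate on marker UMIs. Start regions came from RefSeq and gene positions from GENCODE.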

Additional observations from a re-analysis of the deposited data

How the results depend on the processing

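No paired analysis was possible because the groups share only replicate number 1 and no result comes from a test. Of the alternatives of counts and main ratios 77 left the value within its counting interval, or within 1.5 times for a count, and 29 moved it. For single genes 317 left it there, 69 moved it and 4 turned its direction. A turn was counted only for ratios of at least 2-fold, so smaller ratios that changed sign are not among the 4. Settings without shared barcodes, without the Sertoli-marked subcluster, without Id4 in the gate and without the richest cell of each gene were chosen after seeing the data. So was every alternative for Lin28a in RS-like cells and for Stra8 in the first early SP-like subcluster.

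Stra8 in the early cluster stayed higher in both mutants under every alternative, with a log2 ratio of 1.80 to 2.63 in KO and 0.91 to 2.57 in KI, and in the first early SP-like subcluster it moved only with cells called by UMI totals alone, to 2.01 in KO. Lin28a in RS-like cells stayed higher as well, at 1.59 (KO) and 1.63 (KI) with 5 CPM added and up to 3.38 and 3.01 without integration. Without integration the cells named RS-like were another set. Among ratios of at least 2-fold, Gfra1 turned in KO without shared barcodes (-0.53) and in KI under the gate of 3 SG marker UMIs (0.24). Uchl1 (-0.77) and Sohlh1 (-0.17) turned in KI under the gate without Id4. The cause was not tested.

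Genes of the list past 2-fold numbered 4 in KO and 6 in KI with cells called by UMI totals alone, 0 in both under the gate, where only 2 of the genes reached the minimum level, and 1 in KO with 5 CPM added. The share of all genes was not taken under these settings, so nothing is read from these counts. Of all genes 16.4% in KO and 16.1% in KI passed 2-fold with no minimum level, and 1.73% and 2.23% at 50 CPM. Cells of the cluster with 2 or more genes were 26.1% in KO when thinned to 1500 UMIs, 49.3% in KI when thinned to 6000, and 50% in KO and 61.8% in KI unthinned. The cluster's share of germ cells in WT was 1.42% with no cell calling, 2.72% over 1000 genes, 5.61% by the gate, 0.624% by the gate without Id4 and 1.5% without the Sertoli-marked subcluster. In KO these were 0.602%, 4.37%, 13.7%, 1.23% and 2.97%, and in KI they were 1.19% with no calling, 25.7% by the gate and 3.87% by the gate without Id4. Without calling, the order of the genotypes in this share was thus not kept.

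With 1 library per genotype, differences between mice, dissociations and runs cannot be told apart from genotype. The 48 SG-like cells limit every statement on Gfra1 and Nanos3 to a few UMIs.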
